A study of Rattus norvegicus with 9 samples.

Results

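The genes described here encode the ligands and receptors of axon and cell guidance, as measured in cultured oligodendrocyte progenitors, the glial precursors of oligodendrocytes, which make myelin. They are the semaphorins of classes 3 to 7 with the plexins and neuropilins, the ephrins with the Eph receptors, the Slits with the Robo receptors, the netrins with Dcc and the Unc5 receptors, and Nogo with its receptors and the Lingo proteins. Members were taken by gene symbol alone, with no use of their values, which gave 95 probes of 59 genes among 35129 probes and 12199 genes that have a probe with a single symbol. The symbols of Unc50, Unc5cl and Rtn4ip1 match by their letters only, and the proteins they encode are not guidance ligands or receptors.

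RNA came from progenitor cultures of newborn rats that were separated by surface antigens into 3 populations, with 3 one-colour arrays for each. The O4 population carried the O4 antigen and no NG2, the NG2/A2B5 population carried both NG2 and A2B5, and the NG2 population carried NG2. Cspg4 encodes the proteoglycan NG2, the A2B5 antibody binds gangliosides of early glial progenitors, and O4 recognises sulfatide and related lipids of later ones. The labels give no genotype, strain or treatment, and number the arrays of each population I, II and III, which are called array sets here. The series text speaks of 3 cultures, but the labels do not say what a numeral stands for, so any p-value here rests on the spread among 9 arrays, which may be technical. Values are probe intensities on the scale of the deposited table, in which the median probe of each array read between 1.05 and 1.07, and a reading under a common floor of 0.218 (log2 -2.19) was set to that floor. Because signal depends on the probe as well as on the RNA, levels of different genes are not ranked.

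Guidance ligands are secreted or membrane-bound proteins that steer growing processes and migrating cells by attraction or repulsion, and their receptors act mainly on the actin cytoskeleton through small GTPases. Class 3 semaphorins signal through neuropilins paired with plexins, the transmembrane semaphorins bind plexins directly, and ephrins and Eph receptors signal in both directions where cells touch. Oligodendrocyte progenitors migrate and extend processes under several of these cues, and Nogo and Lingo-1 are known for restraining axon growth and the maturation of these cells.

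The oligodendrocyte lineage markers on the arrays ranged from far over the floor to near it. Cspg4 read 92.1 to 185 intensity units over the 9 arrays, Sox10 read 29.7 to 47.6 and Bcas1 read 207 to 339, whereas the progenitor gene Pdgfra read 0.213 to 0.917 and Mbp read near the floor. Olig2 read 0.292 to 0.709, Mobp 0.510 to 0.926 and Mog 0.138 to 0.802, with Mog over the floor on 6 arrays. The summed progenitor markers (6 of 8 measured) ranged from 145 to 223 on the O4 arrays, from 155 to 252 with NG2/A2B5 and from 192 to 231 with NG2, with overlap. Cspg4 read lower for O4 than for NG2 within each set, at 125 beside 135 (I), 92.1 beside 146 (II) and 154 beside 166 (III), though these ranges overlapped too. Its NG2/A2B5 readings of 104, 127 and 185 lay under O4 in set I and over it in the others. RNA of these markers does not measure the lipids that the O4 and A2B5 antibodies bind, so the sum cannot show whether those antigens were mirrored. Markers of other cells were present to different degrees. The astrocyte markers (6 of 6 measured, 4 of them over the floor on all 9 arrays) summed to 64.2 to 160 intensity units, mostly from Slc1a3 at 38.6 to 96.4 and Aldoc at 15.1 to 69.0, while Gfap read 0.113 to 0.597. The microglial sum (8 of 8 measured) ran from 10.0 to 15.5, with Itgam at 3.88 to 7.94 and Cd68 at 3.95 to 6.93, and the sum of pericyte and fibroblast markers (5 of 5 measured) from 5.44 to 17.3, mostly from Col1a1 at 4.92 to 16.6. The neuronal gene Snap25, the microglial gene C1qa and the pericyte gene Rgs5 were at or below the floor on all 9 arrays. In bulk RNA, fewer cells of a type and less RNA per cell cannot be told apart.

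Of the 59 guidance genes, 52 read over the floor on at least 3 of the 9 arrays and were tested, and 37 of them did so on all 9. The tested share was 88.1%, against 89.1% of all genes. The 7 left out for low readings were Dcc, the attractive netrin receptor, the ephrin Efna5, the receptors Epha3 and Epha8, Lingo2, Sema3d and Slit3. By family, 5 of 6 class 3 semaphorins, 8 of 8 other semaphorins, 2 of 2 neuropilins, 5 of 5 plexins, 3 of 4 ephrin-A genes, 2 of 2 ephrin-B genes, 4 of 6 EphA and 3 of 3 EphB receptors were tested. So were 2 of 3 Slits, 4 of 4 Robo receptors, 4 of 4 netrins, 3 of 4 of Dcc and the Unc5 receptors, 1 of 2 Lingo genes, 3 of 3 of Nogo and its receptors and the 3 genes that match by letters.

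The study's own question was how the populations differ from one another. Without a block for the array set, no guidance gene differed between them past the threshold, an adjusted p under 0.05 over all genes in limma. In O4 against NG2, 0 of 52 were called, beside 0.0% of 10866 genes, and 3 had an unadjusted p under 0.05 (Plxna3, Robo1 and Rtn4ip1), beside 8.67% of all genes. In O4 against NG2/A2B5, 0 were called, beside 0.0%, and 2 had an unadjusted p under 0.05 (Robo1 and Sema4f), beside 3.18%. In NG2/A2B5 against NG2, 0 were called, beside 0.0%, and 2 had an unadjusted p under 0.05 (Ephb6 and Rtn4rl1), beside 4.45%. The F test over the 3 populations called 0 of 52, beside 0.0%, with 3 at an unadjusted p under 0.05. The lowest adjusted p among guidance genes was 0.488, 1.0 and 0.995 in the 3 comparisons. None differed by 2-fold, and the median 95% interval reached 0.53 on the log2 scale to either side of the estimate. These fits ignore that arrays of the same set deviate together. With the set as a fixed block, 0 guidance genes were called in each comparison. At an unadjusted p under 0.05 there were then 6, 5 and 6 of 52 guidance genes. Of 10866 genes there were 1724, 769 and 1073 (942, 346 and 483 without a block). The genes named above are those of the fits without a block. Plxna3 passed in O4 against NG2 with trend and robust estimates added to that block.

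The direction of the guidance genes was near even in each of these comparisons. For O4 against NG2 they split into 22 higher and 30 lower values, for O4 against NG2/A2B5 into 22 and 30, and for NG2/A2B5 against NG2 into 23 and 28, with Robo1 at the floor in both of the last. The median differences were -0.049, -0.078 and -0.0061 on the log2 scale, beside 0.0074, 0.015 and -0.011 for all genes. Arrays of the populations did not overlap for 7 guidance genes in O4 against NG2 (13.5%, beside 14.0% of all genes), 5 in O4 against NG2/A2B5 (9.62%, beside 8.07%) and 5 in NG2/A2B5 against NG2 (9.62%, beside 9.52%). The difference had the same sign within sets I, II and III for 21 (40.4%, beside 37.4%), 17 (32.7%, beside 26.7%) and 10 (19.2%, beside 29.8%) of them. Robo1, over the floor in O4 alone, is in both of these counts for each comparison with O4, as in the unadjusted counts above. The shares lay near those of all genes or, in the last, below.

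**Figure D1:**
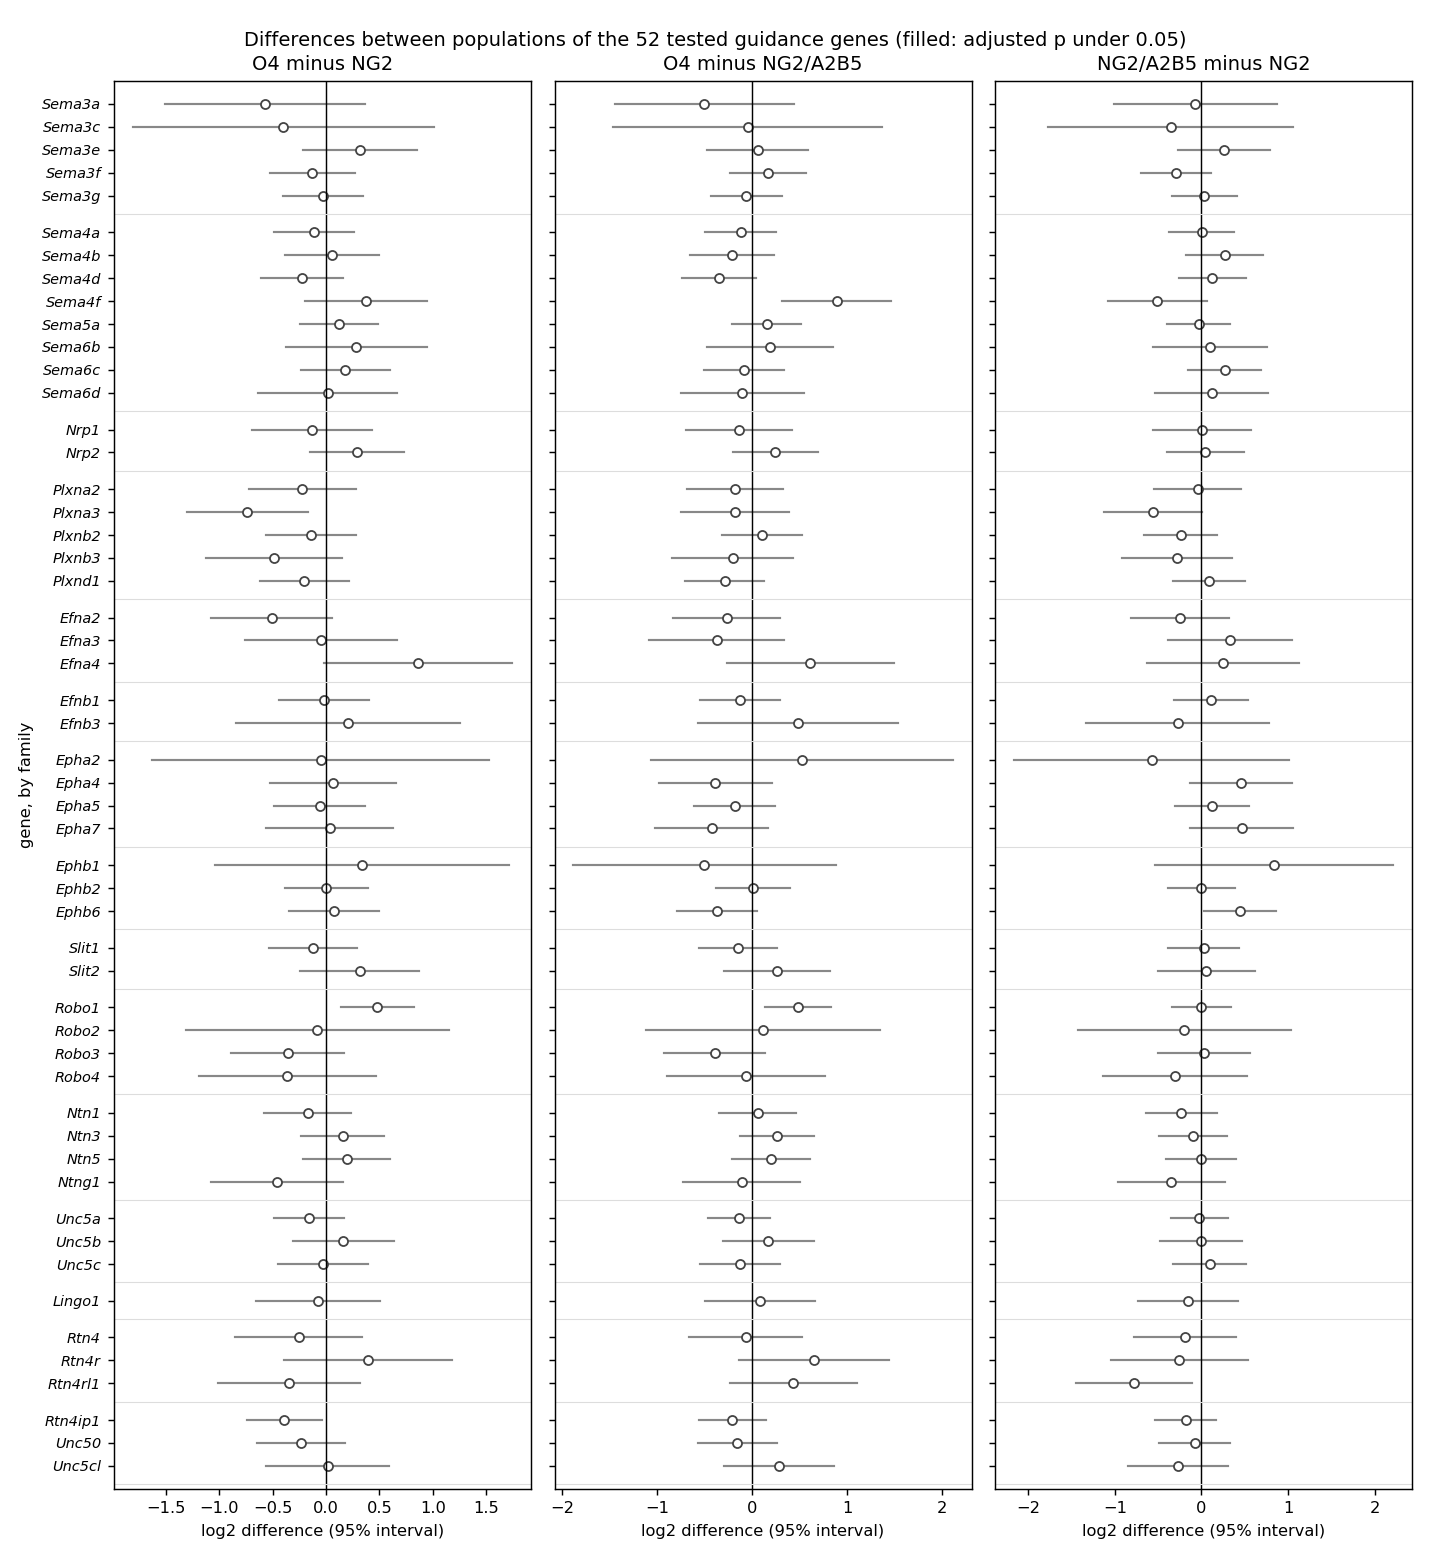
Differences between populations of the 52 tested guidance genes, as log2 difference (horizontal axis) with its 95% interval, grouped by family from top to bottom. No point is filled, as no gene had an adjusted p under 0.05, and the widest intervals belong to genes such as Epha2, Ephb1 and Sema3c that differ between array sets.

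More guidance genes were called between the array sets that the populations share, and the only 2-fold differences lay there. Over the 52 genes the sizes were alike, with median absolute log2 differences of 0.173, 0.182 and 0.196 (II against I, III against I, III against II). Between populations they were 0.188, 0.186 and 0.185. The fits differ too, with a median SE of 0.18 for sets and 0.24 for populations, the latter without a block. With population as a term, 2 of 52 guidance genes were called in set II against I (3.85%, beside 4.31% of all genes), 1 in set III against I (1.92%, beside 0.598%) and 7 in set III against II (13.5%, beside 11.9%). By direction, 1 was higher and 1 lower in set II than in I (beside 2.16% and 2.14% of all genes), 0 higher and 1 lower in III than in I (beside 0.166% and 0.433%), and 3 higher and 4 lower in III than in II (beside 5.2% and 6.75%). Without regard to a test, arrays of the sets did not overlap for 6 guidance genes in II against I (11.5%, beside 22.5%), 9 in III against I (17.3%, beside 19.2%) and 13 in III against II (25%, beside 28.2%). The F test over the sets called 4 (Sema3c, Epha2, Ephb1 and Epha4), or 7.69%, beside 9.04% of all genes. In each comparison of sets 28 of the 52 differences were positive, with medians of 0.015, 0.030 and 0.012, beside 0.095, 0.016 and -0.074 for all genes. For set II against I the called genes of the whole array split 235 higher and 233 lower, and 168 and 280 after quantile normalization, which kept the guidance genes at 1 called higher and 1 lower. The array set held more of a gene's variance than the population did in 28 of 52 guidance genes (53.8%, beside 62.6% of all genes). The median share was 25.5% for the set and 27.2% for the population, beside 36.8% and 20.9% over all genes.

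Some marker sums moved with the sets as well. The neuronal markers (4 of 7 measured, 2 of them over the floor on all 9 arrays) summed to 21.1 to 23.5 intensity units in set III, 5.45 to 8.98 in set I and 7.43 to 11.7 in set II, and nearly all of this was Dcx, at 19.9 to 21.4 in set III and 4.04 to 10.6 in the others. Snap25 was at or below the floor throughout. The myelinating markers (8 of 9 measured) summed to 517 to 647 in set III, 422 to 489 in set I and 405 to 415 in set II. The astrocyte sum was 111.3 to 160 in set III, 89.4 to 110.7 in set I and 64.2 to 101 in set II, and the progenitor sum was 223 to 252 in set III, 155 to 192 in set I and 145 to 204 in set II. All 4 sums were highest in set III without overlap, but each rests mostly on few bright genes. Besides Dcx these were Bcas1 and Cnp (myelinating), Cspg4 (progenitor), and Slc1a3 and Aldoc (astrocyte). Not all members followed. In O4, NG2/A2B5 and NG2, Mag read 16.8, 11.8 and 16.6 in set II and 12.4, 13.3 and 8.77 in set III. Aqp4 read 1.18, 1.42 and 1.70 in set II and 1.27, 1.11 and 1.11 in set III. The part of these sums in the differences between sets given below was not tested.

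**Figure D2:**
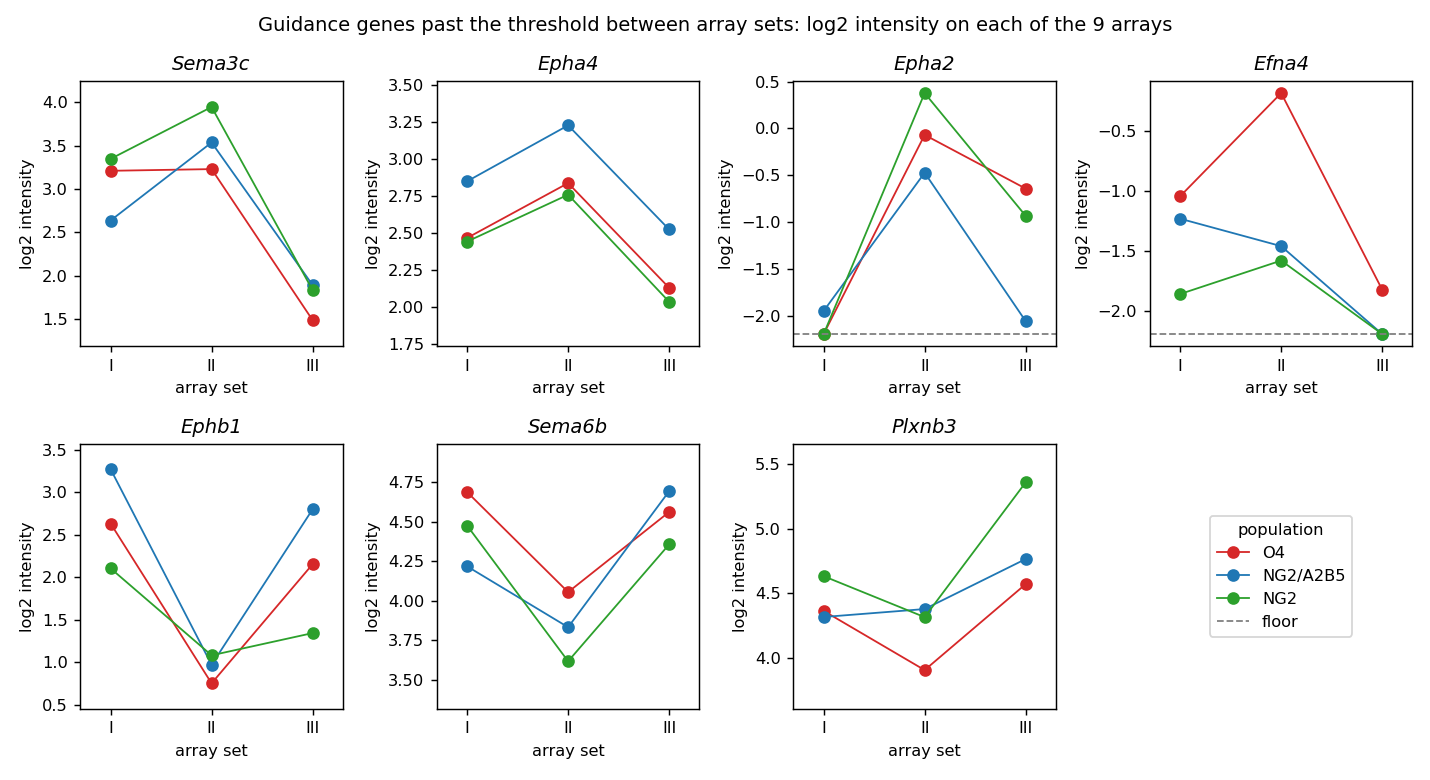
Log2 intensity on each of the 9 arrays for the 7 guidance genes past the threshold in a comparison of array sets, with the set on the horizontal axis and lines joining the arrays of a population (the vertical scale differs by gene, and the dashed line marks the floor). Sema3c, Epha4, Epha2 and Efna4 were lower in set III than in set II, and Ephb1, Sema6b and Plxnb3 were higher.

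Among the class 3 semaphorins, secreted proteins that signal through neuropilins and plexins, Sema3c gave the clearest difference of any guidance gene, and it lay between array sets. The Sema3c probe read 9.25, 9.38 and 2.80 in sets I, II and III of O4, 6.21, 11.6 and 3.71 in NG2/A2B5, and 10.2, 15.4 and 3.56 in NG2. Each array of set III lay under every array of sets I and II, while the 3 populations overlapped widely. Log2 levels were 3.06 ± 0.38 in set I (SD, n = 3), 3.57 ± 0.36 in set II and 1.74 ± 0.22 in set III. Sema3c was lower in set III than in set II by 1.84 on the log2 scale (-1.84, SE 0.21, 3.57-fold, adjusted p 0.00183 in limma), with -1.74, -1.65 and -2.12 within O4, NG2/A2B5 and NG2. It passed in all 9 fits that left out an array, with a highest adjusted p of 0.0176. With the mean of both its probes the difference was -0.92 (adjusted p 0.0101), the second probe being at or below the floor on all 9 arrays.

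The fall of Sema3c in set III against set I was called less firmly, at -1.33 (SE 0.21, 2.51-fold, adjusted p 0.0326 in limma). Among the fits that left out an array, it passed only without set I of NG2/A2B5, and without each of the other 8 arrays the adjusted p ran from 0.0589 to 0.172. It was 0.0547 without the population term, 0.107 with the mean of the probes and 0.234 with each array's smallest positive value as the floor. Between populations Sema3c differed by -0.40 in O4 against NG2, with an interval from -1.81 to 1.01.

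The stretch before the Sema3c gene is shown because the Sema3c difference of sets III and II passed in every fit without an array. It is the 250 bases upstream of the gene start in RefSeq (GRCr8, chr4:18699628-18699877, minus strand, read in the direction of the gene), and capitals mark matches of the E-box CANNTG, the DNA motif of helix-loop-helix factors such as Olig1 and Olig2.
Sema3c: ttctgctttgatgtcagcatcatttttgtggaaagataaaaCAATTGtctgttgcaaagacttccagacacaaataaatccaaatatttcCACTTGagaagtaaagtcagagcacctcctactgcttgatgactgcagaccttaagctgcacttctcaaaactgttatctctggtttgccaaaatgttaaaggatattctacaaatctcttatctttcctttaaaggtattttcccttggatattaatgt
This stretch has 35.2% G and C and 0 CpG dinucleotides, beside medians of 51.2% and 5 over 33465 such stretches, and 2 E-box matches, a motif found in 65.5% of them.

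The other tested class 3 semaphorins did not pass in any comparison. Sema3a, a repellent ligand of neuropilin-1, read 0.488, 0.355 and 0.414 on the O4 arrays, 0.259, 1.02 and 0.780 in NG2/A2B5, and 0.716, 0.553 and 0.597 in NG2. The O4 arrays lay under the NG2 arrays, at a difference of -0.57 (interval -1.51 to 0.37, adjusted p 0.744), and NG2/A2B5 spanned both. Sema3e, which binds plexin-D1 without a neuropilin, read 0.892 to 1.78 over the 9 arrays, and Sema3g read 0.553 to 0.710. Sema3f, a ligand of neuropilin-2, was over the floor on 4 arrays, 3 of them NG2, and differed by -0.30 between NG2/A2B5 and NG2 (adjusted p 1.0), with -0.013 from its other probe.

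Of the transmembrane semaphorins, Sema6b, which binds A-type plexins, was the only one called, between sets III and II. Its probe read 25.8, 16.6 and 23.6 in sets I, II and III of O4, 18.6, 14.3 and 25.9 in NG2/A2B5, and 22.2, 12.3 and 20.5 in NG2. Every array of set II lay under every array of sets I and III. Sema6b was higher in set III than in set II by 0.70 (SE 0.17, 1.63-fold, adjusted p 0.0307 in limma). The call was lost without set II or III of any population, with adjusted p-values from 0.0606 without set III of O4 to 0.135 without set III of NG2/A2B5, and was 0.0833 with each array's smallest positive value as the floor. In set II against I the difference was -0.62 (adjusted p 0.0780), and it passed with trend and robust variance estimates (0.0180) and among genes over the floor on all 9 arrays (0.0394).

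The stretch upstream of Sema6b (GRCr8, chr9:1047743-1047992, minus strand) is shown beside that of Sema3c, since the 2 genes differed in opposite directions between sets II and III. Sema6b was lowest in set II, whereas Sema3c was lowest in set III. Capitals mark E-box matches and a match of the CCAAT box (CCAAT on either strand).
Sema6b: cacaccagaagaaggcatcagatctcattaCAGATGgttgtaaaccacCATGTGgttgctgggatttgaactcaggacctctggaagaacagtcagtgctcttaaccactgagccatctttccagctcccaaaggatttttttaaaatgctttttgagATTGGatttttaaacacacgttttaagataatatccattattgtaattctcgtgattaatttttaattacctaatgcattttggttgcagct
It holds 2 E-box matches and 1 CCAAT match, with 37.2% G and C and 2 CpG dinucleotides, and CCAAT occurs in 34.0% of all the stretches compared.

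Sema4f had the smallest p of any guidance gene in O4 against NG2/A2B5. Its probe read 0.393, 0.367 and 0.458 on the O4 arrays, 0.210, 0.192 and 0.174 in NG2/A2B5, and 0.291, 0.169 and 0.474 in NG2. All 3 NG2/A2B5 arrays were under the floor and all 3 O4 arrays over it, which gives a difference of at least 1.85-fold (0.89 on the log2 scale against the floor, SE 0.26, adjusted p 1.0 in limma). NG2 overlapped both. Sema4d, a ligand of B-type plexins, read 7.67, 7.63 and 9.38 on the O4 arrays, 9.80, 9.95 and 11.6 in NG2/A2B5 and 10.2, 10.2 and 8.41 in NG2. O4 lay under NG2/A2B5 by 0.35 without overlap (-0.35, interval -0.73 to 0.035, adjusted p 1.0), but the second probe of Sema4d gave 0.48 and the mean of its probes 0.13.

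Sema5a, a ligand of plexin-B3 that oligodendrocyte-lineage cells are known to make, was steady by its brightest probe, at 11.3 to 14.8 over the 9 arrays, with differences between -0.11 and 0.15 in the 6 comparisons. Its second probe read 3.55, 3.26 and 6.20 in sets I, II and III of O4, 3.88, 2.87 and 5.30 in NG2/A2B5, and 2.84, 2.12 and 3.17 in NG2. Tested on its own among all probes, this second probe was higher in set III than in set II by 0.80 (adjusted p 0.0241 in limma), whereas the brightest gave -0.11 (adjusted p 0.692) and the 2 dimmer probes 0.38 each (adjusted p 0.321 and 0.334). Sema4a, Sema4b, Sema6c and Sema6d read over the floor on all 9 arrays and passed in no comparison, at 2.18 to 2.98, 2.68 to 4.23, 1.87 to 2.85 and 3.43 to 7.89.

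The receptors of the semaphorins are the plexins, which bind the ligand and act on small GTPases, and the neuropilins, which hold class 3 semaphorins. All 5 tested plexins read lower in O4 than in NG2, with differences from -0.74 to -0.14 and a median of -0.22, under the deposited scaling, after quantile normalization and with array medians centred, though none passed. These are the brightest probes, and the second probes gave -0.59 for Plxna3, -0.61 for Plxnd1 and 0.36 for Plxna2. Plxna3, a receptor for class 3 semaphorins, read 6.27, 5.49 and 7.24 on the O4 arrays, 5.37, 7.91 and 8.49 in NG2/A2B5, and 8.70, 9.11 and 14.6 in NG2. The NG2 arrays lay over all 6 others. The log2 level was 3.39 ± 0.41 in NG2 (SD, n = 3), 2.83 ± 0.36 in NG2/A2B5 and 2.65 ± 0.20 in O4. The Plxna3 difference of O4 from NG2 was -0.74 (SE 0.25, interval -1.30 to -0.17, adjusted p 0.490 in limma), with -0.47, -0.73 and -1.01 within sets I, II and III. With the array set as a block the adjusted p was 0.154, and with trend and robust estimates added to that block it was 0.0486, the only guidance gene among 143 genes called in that setting. For NG2/A2B5 against NG2 its second probe gave -0.24, where the brightest gave -0.56.

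Plxnb3, the receptor of Sema5a, was higher in set III than in set II. It read 20.6, 15.0 and 23.8 in sets I, II and III of O4, 19.9, 20.8 and 27.2 in NG2/A2B5 and 24.8, 19.9 and 41.0 in NG2. Set III lay over set II in every population and without overlap, with the highest array that of NG2. The difference was 0.70 (SE 0.17, 1.62-fold, adjusted p 0.0350 in limma). It passed in 3 of 9 fits that left out an array, and was lost without set II or III of O4, set III of NG2/A2B5 or any set of NG2, with adjusted p-values from 0.0546 without set I of NG2 to 0.148 without set II of NG2. It was 0.0782 without the population term and 0.0925 with each array's smallest positive value as the floor.

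The remaining plexins and neuropilins were steadier. Plxnb2, a receptor of Sema4d, read 27.3 to 42.1 over the 9 arrays, Plxna2 read 6.15 to 10.7 and Plxnd1 read 1.25 to 1.86. Plxna2 read lower in set III than in set II without overlap, at -0.49 (adjusted p 0.0789), and Nrp1 likewise at -0.54 (adjusted p 0.0896). Nrp1 read 0.611 to 1.12 by its brightest probe, and its second probe, over the floor on 4 arrays, gave 0.89 for the same comparison. Nrp2 read over the floor on 5 of 9 arrays and passed in no comparison.

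The ephrins are membrane-bound ligands, held by a lipid anchor in the A class and by a transmembrane segment in the B class. Efna4 read 0.484, 0.879 and 0.282 in sets I, II and III of O4, 0.425, 0.363 and 0.137 in NG2/A2B5, and 0.275, 0.334 and 0.0900 in NG2. Set III lay under set II without overlap, and 2 of its 3 arrays were under the floor. The fall of Efna4 from set II to set III was -0.99 against that floor (SE 0.23, at least 1.99-fold, adjusted p 0.0283 in limma), and -1.65 (adjusted p 0.0377) with each array's smallest positive value as the floor. The SE against the common floor does not measure the spread of the 2 arrays of set III that were set to it. Without set II of O4 the adjusted p was 0.0778, without set III of O4 0.111, without set III of NG2/A2B5 0.0912, without set II of NG2 0.0790 and without the population term 0.102. O4 read higher than NG2 in each set, by 0.82, 1.40 and 0.37, with a mean difference of 0.86 (interval -0.018 to 1.74, adjusted p 0.586).

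The other ephrins passed in no comparison. Efna2 read 0.308 to 0.672 and averaged less in O4 than in NG2 (-0.51, interval -1.08 to 0.053, adjusted p 0.604). Efna3 read over the floor on 6 arrays and averaged most in set I, with -0.61 in set II and -0.65 in set III against it (adjusted p 0.165 and 0.217). Efnb1 read 4.71 to 7.18, with differences between -0.13 and 0.26, and Efnb3 read 0.221 to 0.687.

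The Eph receptors, the tyrosine kinases that bind ephrins, held 3 of the 7 guidance genes called between sets. Of all genes, 11.9% were called in set III against II and 4.31% in set II against I. Counts of so few genes, over comparisons that share arrays, do not set the family apart. The EphA and EphB genes had opposite signs in the comparisons with set II, but not in set III against I, where 1 EphA gene was positive and 3 negative (median -0.22) and 1 EphB gene positive and 2 negative (median -0.13). In set III against II all 4 tested EphA genes had negative differences (2 called) and all 3 EphB genes positive ones (1 called), under the deposited scaling, quantile normalization and centred medians alike. Those are the values of each gene's brightest probe, and the second probes of Epha5, Epha7 and Ephb6 went the other way, at 0.38, 0.13 and -0.070. In set II against I all 4 EphA differences were positive (1 called) and all 3 EphB differences negative (1 called), except that 1 EphA gene turned after quantile normalization and that the second probe of Epha7 gave -0.033. The comparisons share the arrays of set II, and of all genes 42.5% were positive in set III against II and 62.5% in set II against I.

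Epha4, a receptor that binds ephrins of both classes, read 5.53, 7.16 and 4.38 in sets I, II and III of O4, 7.22, 9.38 and 5.76 in NG2/A2B5, and 5.44, 6.78 and 4.10 in NG2. In every population set II was highest and set III lowest. Epha4 was lower in set III than in set II by 0.71 (-0.71, SE 0.13, 1.64-fold, adjusted p 0.0130 in limma), with -0.71, -0.70 and -0.72 within O4, NG2/A2B5 and NG2. NG2/A2B5 read over NG2 in each set too, by 0.41, 0.47 and 0.49, and over O4 in each set. Against NG2 the arrays overlapped, with an adjusted p of 1.0 in limma without a block for the set. The set held 67.5% of the variance of Epha4 and the population 32.3%, so that fit counts the set differences as spread. With the set as a fixed block, no guidance gene was called in this comparison either. The call between sets was lost without set III of O4 (adjusted p 0.0513), set III of NG2/A2B5 (0.0579), set II of NG2 (0.0561) or set III of NG2 (0.0577), while the difference stayed between -0.72 and -0.70. Its 4 probes gave -0.71, -0.61, -0.88 and -0.41, of which probes 1 and 3 passed when all probes were tested on their own (adjusted p 0.0180 and 0.0211).

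Epha2, the receptor mainly of epithelial cells, was the guidance gene with the largest difference in set II against I. It read 0.206, 0.953 and 0.641 in sets I, II and III of O4, 0.259, 0.720 and 0.240 in NG2/A2B5, and 0.137, 1.30 and 0.524 in NG2. All 3 arrays of set II lay over the other 6, and 2 of 3 arrays of set I were under the floor. Epha2 was higher in set II than in set I by 2.06 against that floor (SE 0.29, at least 4.16-fold, adjusted p 0.00895 in limma), with 2.13, 1.47 and 2.57 within the populations. The SE does not measure the spread of the 2 arrays of set I that were set to the floor. Without set II of NG2 the adjusted p was 0.0544. With each array's smallest positive value as the floor it was 0.112, with an SE of 0.44. Averaging both probes gave a difference of 1.05 (adjusted p 0.0217), the second probe being over the floor on 1 array.

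Against set II, set III read lower for Epha2 by 1.16 (-1.16, SE 0.29, adjusted p 0.0381 in limma). This call held in 4 of 9 fits that left out an array and was lost without set II of O4 (0.0776), set II (0.0933) or III (0.134) of NG2/A2B5, or set II (0.168) or III (0.108) of NG2. It was 0.0557 without the population term, 0.0692 with the mean of the probes at -0.60, 0.0550 with the floor as an offset and 0.194 with the smallest positive values.

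The stretch upstream of Epha2 (GRCr8, chr5:158888379-158888628, plus strand) is shown as the region of the gene with the widest range between sets. Capitals mark, from left to right, an E-box, a GC box (GGGCGG on either strand) and the cyclic AMP response element TGACGTCA.
Epha2: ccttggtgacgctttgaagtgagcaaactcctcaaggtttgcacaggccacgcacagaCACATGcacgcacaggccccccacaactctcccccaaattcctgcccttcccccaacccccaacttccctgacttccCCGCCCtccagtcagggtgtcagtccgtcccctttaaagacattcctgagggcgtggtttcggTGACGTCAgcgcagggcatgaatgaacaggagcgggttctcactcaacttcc
The response element occurs in 1.59% of all the stretches compared and the GC box in 30.5%.

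Ephb1, a receptor of ephrin-B ligands, ran opposite to Epha2. It read 6.21, 1.68 and 4.45 in sets I, II and III of O4, 9.68, 1.96 and 6.97 in NG2/A2B5, and 4.30, 2.12 and 2.54 in NG2. Set II was lowest in every population, and its 3 arrays lay under the other 6. Ephb1 was lower in set II than in set I by 1.74 (-1.74, SE 0.27, 3.33-fold, adjusted p 0.0127 in limma) and higher in set III than in set II by 1.17 (SE 0.27, 2.24-fold, adjusted p 0.0283). The first was lost without set I (0.0559) or II (0.0649) of O4 or set I of NG2/A2B5 (0.0626), and the second without set II (0.0994) or III (0.0998) of O4 or set II (0.0918) or III (0.114) of NG2/A2B5. With each array's smallest positive value as the floor they had adjusted p-values of 0.105 and 0.106, and the second 0.0716 without the population term. From set II to III the O4 arrays rose by 1.40, the NG2/A2B5 arrays by 1.83 and the NG2 arrays by 0.26.

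The stretch upstream of Ephb1 (GRCr8, chr8:111823760-111824009, minus strand) is given beside that of Epha2, its opposite in the sets. Its capitals mark 2 matches of the CCAAT box, on the strand opposite to the gene.
Ephb1: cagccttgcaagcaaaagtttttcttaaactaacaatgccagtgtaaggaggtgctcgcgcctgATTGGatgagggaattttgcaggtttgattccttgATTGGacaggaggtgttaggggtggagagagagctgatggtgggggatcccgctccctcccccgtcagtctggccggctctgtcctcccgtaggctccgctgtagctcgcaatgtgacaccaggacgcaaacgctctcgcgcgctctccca
Its G and C share was 56.4% with 13 CpG dinucleotides, against 58.4% and 10 for Epha2. Of the 59 guidance genes 47 had an entry, with a median of 60.8% G and C and 14 CpG dinucleotides. Among these 47, the GC box occurred in 23, the E-box in 28, the CCAAT box in 15, the Sox element ACAAAG in 7, the response element in 1 and the TATA box TATAAA in 0, beside 30.5%, 65.5%, 34.0%, 16.3%, 1.59% and 12.9% of all stretches. A match describes the letters and is not a binding site.

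Ephb6, an Eph receptor without kinase activity, read 2.42, 2.20 and 2.24 on the O4 arrays, 3.38, 2.31 and 3.30 in NG2/A2B5, and 2.40, 2.13 and 2.00 in NG2. In sets I and III the NG2/A2B5 arrays lay over the rest, and in set II they did so by little. NG2/A2B5 read over NG2 by 0.44 (SE 0.19, interval 0.024 to 0.86, adjusted p 1.0 in limma), while its dimmer probes gave -0.013 and 0.26. Epha7 read over the floor on 5 arrays, with 0.46 in the same comparison (adjusted p 1.0) and 0.050 from its second probe. Epha5 read 1.88 to 2.69 and Ephb2 0.245 to 0.345, with no call.

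**Figure D3:**
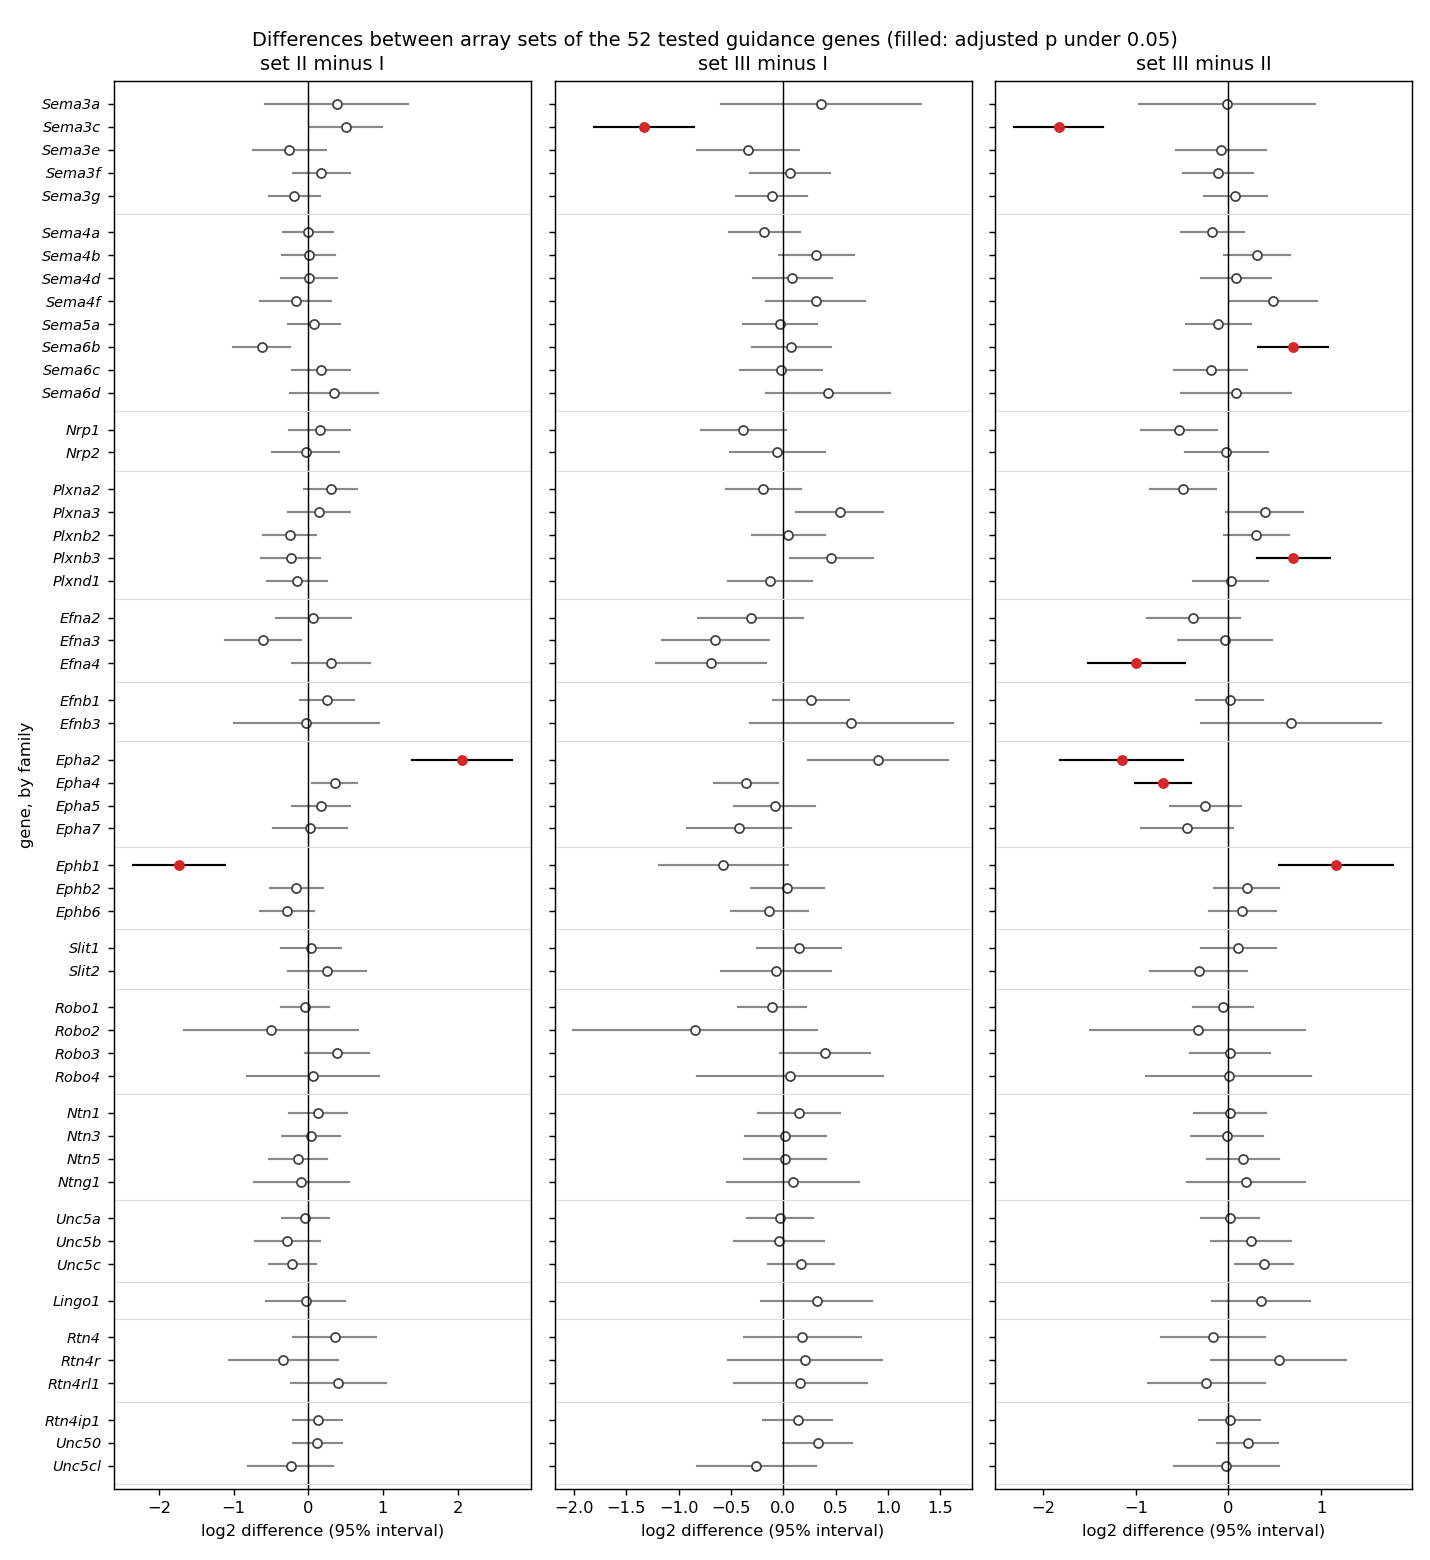
Differences between array sets of the 52 tested guidance genes, as log2 difference (horizontal axis) with its 95% interval, grouped by family. Filled points mark the 2, 1 and 7 genes with an adjusted p under 0.05 in set II against I, III against I and III against II, and in the last panel all EphA points lie left of 0 and all EphB points right of it.

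Slits are secreted repellents and the Robo proteins are their receptors. Robo1 was over the floor in O4 alone, at 0.340, 0.308 and 0.271, against 0.208, 0.152 and 0.138 in NG2/A2B5 and -0.030, 0.086 and 0.119 in NG2. The O4 arrays did not overlap the others, which were all under the floor, so that O4 read at least 1.40-fold higher than either (0.48 on the log2 scale, SE 0.15, adjusted p 0.488 against NG2 and 1.0 against NG2/A2B5 in limma). The size depends on the floor, being 4.59 against NG2 with each array's smallest positive value and 0.89 with the floor as an offset, and it passed in neither. Robo1 met the filter of 3 arrays through O4 alone. With all arrays of the other populations set to the floor, its SE and its lack of overlap do not measure their spread. Robo3 read 0.304 to 0.644, Robo2 was over the floor on 5 arrays and Robo4, a receptor of endothelial cells, on 8. Slit1 read 1.13 to 1.61 with differences between -0.15 and 0.15, and Slit2 reached the floor on 3 arrays, with its highest reading of 0.427 in set II of O4.

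Among the netrins, secreted cues for migrating progenitors, and their receptors, no gene was called in any comparison. By its brightest probe, Ntn1 read 55.6, 56.7 and 57.4 on the O4 arrays, 52.1, 48.5 and 63.5 in NG2/A2B5, and 55.9, 77.0 and 60.2 in NG2. The populations overlapped, and the differences of this probe ran from -0.23 to 0.15, with intervals within -0.64 and 0.54. The second Ntn1 probe was over the floor on 4 arrays. It read 0.415 and 0.376 in sets II and III of O4, and 0.221 and 0.590 in sets I and II of NG2/A2B5. Unc5c, a repulsive netrin receptor, read 38.7 to 58.6, with its lowest reading in set II of each population and a difference of 0.38 in set III against II (adjusted p 0.110). Unc5a read 0.896 to 1.10 and Unc5b 0.662 to 1.15. The O4 arrays of Unc5a lay under those of both other populations, at -0.16 and -0.14 (adjusted p 0.793 and 1.0). Ntn5 read 0.753 to 1.05, Ntng1, a membrane-anchored relative, was over the floor on 4 arrays and Ntn3 on 3. Ntng1 differed by -0.46 in O4 against NG2.

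Nogo, encoded by Rtn4, is an inhibitor of axon growth found in myelin, and it binds the receptor Rtn4r together with Lingo-1. Rtn4 read 24.2, 31.4 and 38.2 on the O4 arrays, 26.2, 34.9 and 36.8 in NG2/A2B5, and 39.7, 47.9 and 26.1 in NG2. The populations overlapped, and O4 differed from NG2 by -0.26 (interval -0.85 to 0.33, adjusted p 0.816), while the second probe gave 0.37. Rtn4r read 0.725, 0.756 and 1.01 on the O4 arrays, 0.640, 0.274 and 0.821 in NG2/A2B5, and 0.636, 0.710 and 0.545 in NG2. It was highest in O4 in every set, by 0.65 over NG2/A2B5 (adjusted p 1.0), where set II of NG2/A2B5 was the lowest array.

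Rtn4rl1, a relative of that receptor, had the smallest p of the guidance genes in NG2/A2B5 against NG2. It read 1.19, 1.29 and 1.97 on the O4 arrays, 1.08, 1.17 and 0.978 in NG2/A2B5, and 1.50, 2.95 and 1.41 in NG2. The NG2/A2B5 arrays lay under all 6 others, and below NG2 by 0.78 (-0.78, SE 0.30, interval -1.44 to -0.11, adjusted p 0.995 in limma), with -0.47, -1.34 and -0.52 within sets I, II and III. With the mean of its probes it was -0.30, the second being over the floor on 2 arrays. Lingo1, an inhibitor of progenitor differentiation, was over the floor on 5 arrays and read at most 0.414, with differences from -0.15 to 0.35.

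**Figure D4:**
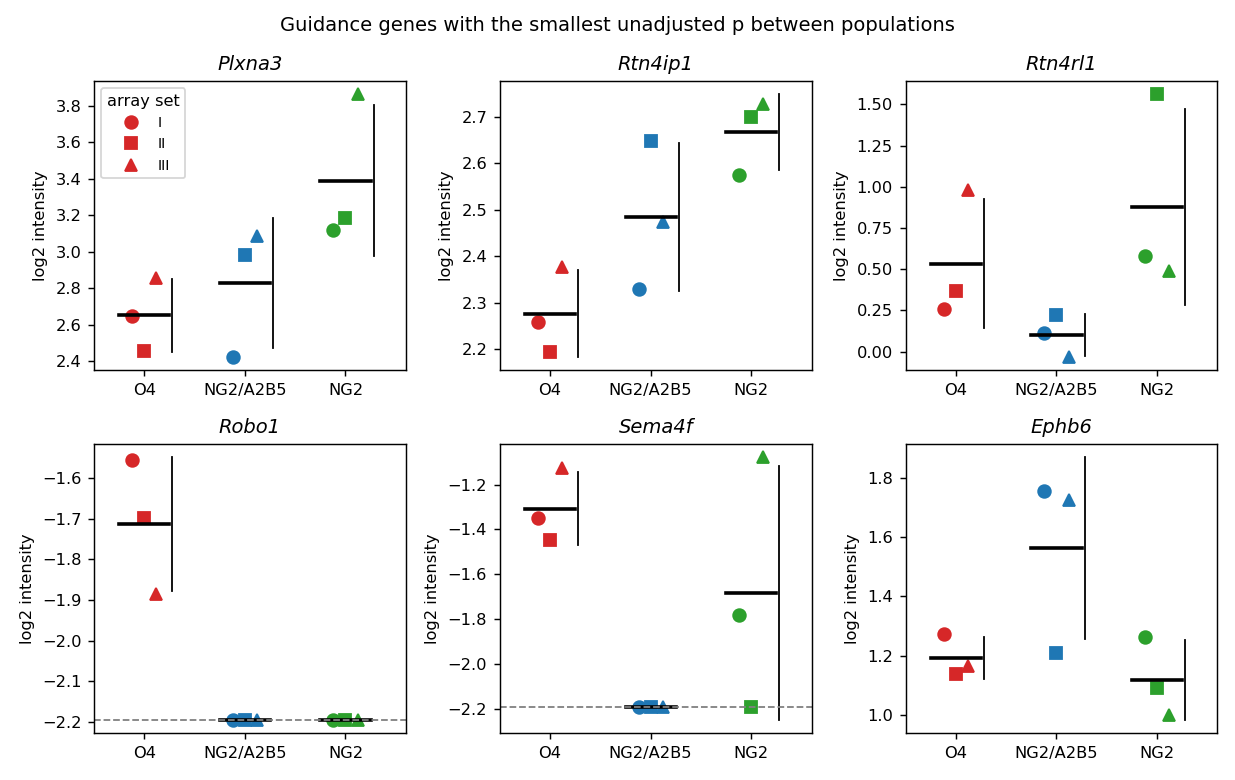
Log2 intensity on each array for the 6 genes with an unadjusted p under 0.05 between populations in the fits without a set block. Populations are on the horizontal axis, with a marker shape for the array set. The mean is a horizontal line, the SD a vertical line and the floor dashed. Robo1 and Sema4f sit on the floor in NG2/A2B5, and none of the 6 had an adjusted p under 0.05.

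Of the genes that match by letters alone, Rtn4ip1, a mitochondrial protein, read 4.58 to 5.20 in O4 and 5.96 to 6.62 in NG2, without overlap, at -0.39 (interval -0.75 to -0.036, adjusted p 0.532). Unc50 read 42.2 to 61.0 and Unc5cl was over the floor on 8 arrays, and neither was called.

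How far a difference belongs to the gene or to its probe could be read from the 16 guidance genes with more than 1 tested probe. All probes of a gene gave the same sign for 4 of them in O4 against NG2, 8 in O4 against NG2/A2B5, 7 in NG2/A2B5 against NG2, 11 in set II against I, 8 in set III against I and 5 in set III against II. Of the genes called between sets only Epha4 was among the 16, and its 4 probes had the same sign in set III against II and in II against I, but not in III against I, where probe 4 gave 0.093 and probe 1 gave -0.36.

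**Figure D5:**
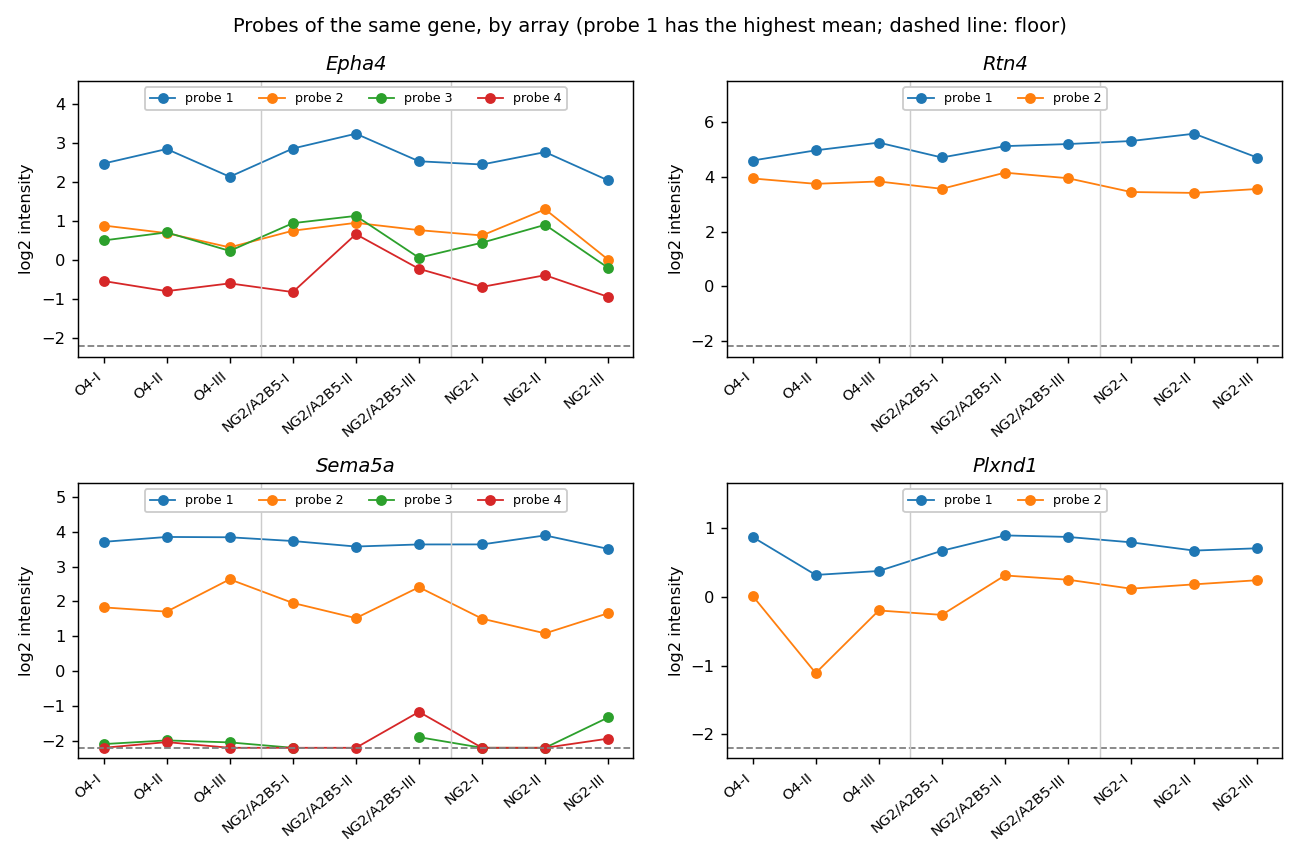
Log2 intensity of each probe of Epha4, Rtn4, Sema5a and Plxnd1 on the 9 arrays (horizontal axis, lines joining the readings of a probe, floor dashed). The brightest Epha4 probe reads less in set III than in set II in each population, while the probes of Sema5a and of Rtn4 do not run in parallel.

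Partners of these families were listed by function with earlier results of these data known. Of 26 co-receptors and other ligands 20 were tested, and of 44 cytoplasmic effectors 34. Between populations 0 of either list were called, and in O4 against NG2, O4 against NG2/A2B5 and NG2/A2B5 against NG2 an unadjusted p under 0.05 was found for 1, 1 and 0 of the first list and 3, 0 and 2 of the second. Tnfrsf19, a co-receptor of the Nogo receptor, had the smallest p of its list and read higher in O4 than in NG2 by 1.12 (SE 0.25, adjusted p 0.387 in limma) and than in NG2/A2B5 by 1.09 (adjusted p 0.909). Mical1, an actin-oxidising enzyme that plexins act through, read lower in NG2 than in O4 by 1.53 on the log2 scale (adjusted p 0.387) and than in NG2/A2B5 by 1.92 (adjusted p 0.257). Both sizes exceed that of any guidance gene between populations, and neither passed.

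Between sets, Dscaml1, a relative of the netrin receptor Dscam, and Lrrc4c, the ligand of netrin-G1, were higher in set III than in set II by 0.64 and 0.80 (adjusted p 0.0332 and 0.0317 in limma). Of the effectors, Nck2, an adaptor of receptor kinases, and Vav3, an exchange factor downstream of Eph receptors, were higher in set II than in set I by 0.83 and 0.84 (adjusted p 0.0204 and 0.0240). They were lower in set III than in set II, at -0.73 and -0.82 (adjusted p 0.0173 and 0.0140 in limma). Kidins220, a scaffold of neuronal receptors, was higher in set III than in set II by 0.67 (adjusted p 0.0318). The medians of the effectors were 0.29 in set II against I and -0.20 in set III against II, beside 0.095 and -0.074 for all genes. By count, 2 of 20 co-receptors and ligands were called in set III against II, beside 11.9% of all genes. Of 34 effectors, 1 was called higher and 2 lower in that comparison. In set II against I, 2 of 34 effectors were called, beside 4.31% of all genes.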

How the data were processed

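Total RNA (10 ng) was amplified by 2 rounds of in vitro transcription and labelled, with spiked mRNAs used for normalization, per the labels' protocols. The deposited table holds a scaled intensity for each of 35129 probes on a linear scale. No source used here names the scanner, its software or the background correction. Values coded -9999 were treated as missing, and between 34926 and 34975 probes per array had a value. No normalization was added, the medians of the arrays being near equal (1.05 to 1.07). The deposited intensity was raised to a common floor, the median over arrays of the 25th percentile, and log2 transformed.

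Symbols came from the platform annotation (16865 probes with 1 symbol, 165 with several, 18099 with none, the last 2 classes left out), with 16836 Entrez identifiers matched to RefSeq GRCr8 for names. The probe with the highest mean stood for its gene, and genes over the floor on at least 3 arrays were tested. Population contrasts used limma 3.58.1 (R 4.3.3, lmFit and eBayes, two-sided) on all 9 arrays without a block, and set contrasts had population as a term. P-values were adjusted by Benjamini-Hochberg over all genes, with a threshold of 0.05. Deviations from population means correlated at 0.233 to 0.497 between arrays of the same numeral and -0.418 to 0.0194 between others, so the numerals pair the arrays. The pipeline was tested on simulated data in which arrays varied independently, so that test does not cover arrays of a set deviating together. Figures used matplotlib 3.10.9.

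Genes named were those called, the 4 smallest p-values per direction in each comparison, the 2 smallest by F test in each family and all Nogo and Lingo genes. Others are named to account for every member. Of the partners, the rule took the 3 smallest p-values per list and population comparison, of which the leading genes are given, and those called between sets were added after their values were seen. Members and lists were chosen with earlier results of these data known. Other settings were the numeral as a fixed or random block, trend and robust estimates (statmod 1.5.0), the 6 arrays compared alone, no population term, quantile or median scaling, other floors and filters, other probes and leaving out each array. The number of arrays limits the precision.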

Additional observations from a re-analysis of the deposited data

How the results depend on the processing

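In the comparisons of populations, the count of guidance genes called stayed at 0 in every setting, except for the array set as a fixed replicate block with trend and robust estimates, which called 1 (Plxna3, lower in O4 than in NG2). The fixed replicate block alone and the random block called 0 guidance genes, and of all genes the fixed block called 0, 0 and 17 and the random block 6, 0 and 10 in O4 against NG2, O4 against NG2/A2B5 and NG2/A2B5 against NG2, where the model without a block called 0. With trend and robust estimates the fixed block called 143, 0 and 101. Between sets the counts moved more. Leaving out an array gave 1 to 2 called in set II against I, 0 to 1 in III against I, 1 to 7 in III against II and 2 to 5 by the F test. Each array's smallest positive value as the floor, with no filter, gave 0, 0, 3 and 0. Without the population term there were 0 in III against I and 3 in III against II, and the mean of a gene's probes gave 0 in III against I. Of all genes, set III against II called 1298, and 430 with the smallest positive floor or 2018 with trend and robust estimates. Set II against I called 468, and 28, 278 (no population term), 730 (genes over the floor on all 9 arrays) or 935 (trend and robust). Set III against I called 65, and 0, 35, 220 or 378. The F test over sets called 982, and 84, 1576 or 1945 with the smallest positive floor, the filter on all 9 arrays and trend and robust estimates. Leaving out an array called 145 to 379 of all genes in II against I, 7 to 42 in III against I, 361 (without set II of NG2) to 1175 in III against II and 333 to 759 by the F test. The 10 called differences were recomputed 170 times, of which 112 passed, 58 fell below the threshold and 0 reversed. Of 725 values of the 38 other named differences, 717 stayed, 3 passed the threshold and 5 reversed. The reversals came from other probes: Sema4d in O4 against NG2/A2B5 at 0.13 (mean of probes) and 0.48 (second probe), Epha7 there at 0.067, Ephb6 in NG2/A2B5 against NG2 at -0.013 and Epha4 in set III against I at 0.093. The cause of the lost calls was not tested, though leaving out an array lowers the number of arrays by construction. Genes read near the floor have differences bounded by it, and with 3 arrays a population the intervals of the guidance genes reach a median of 0.53 on the log2 scale to either side.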
